A study of Mus musculus with 18 samples.

Results

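The nuclear genes that copy and transcribe mtDNA were followed in L929 cells, a line of mouse fibroblasts, across 6 groups of 3 cultures. They were taken by gene symbol, as a functional group. The 10 genes are Tfam, Polg, Polg2, Twnk, Ssbp1, Polrmt, Tfb1m, Tfb2m, Mgme1 and Exog, out of 57180 genes in the table. All 10 passed the filter on low counts and were tested with the 14253 others that did. Mock cells carry DMSO as their treatment label. Aminooxyacetic acid (AOA), which inhibits aminotransferases, was used at 0.5 mM, and 20 mM aspartate was added with it in the AOA+Asp group. The other 3 groups received herring testis DNA (HT-DNA, a ligand of the DNA sensor cGAS) by transfection at 0.5 μg/ml for 6 h, alone, after 1 h of AOA, or after AOA with aspartate. All groups are the same wild-type line, and no group had aspartate without AOA, so the comparisons describe aspartate only in the presence of the inhibitor. No group is labelled as given the transfection reagent alone, so HT-DNA against Mock does not separate the DNA from its transfection. The labels give no AOA time for the AOA and AOA+Asp groups, so equal exposure with and without HT-DNA is assumed.

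Mitochondrial DNA is a small circle packed into nucleoids by TFAM, which also bends the promoters so that transcription can start. The RNA polymerase POLRMT and the initiation factor TFB2M start transcription there, and the transcripts serve both as mRNA and as primers for replication. The replisome consists of the DNA polymerase POLG with its accessory subunit POLG2, the helicase TWNK and the single-strand binding protein SSBP1, while MGME1 and EXOG are nucleases that act on DNA ends and flaps. TFB1M is related to TFB2M in sequence, and methylates the small ribosomal RNA of the mitochondrion. Release of mtDNA into the cytosol is one way in which cGAS can be engaged.

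Libraries held 17901605 to 24057343 counts, which gave Polg 2003 to 3764 counts in a library and Polg2, the least covered gene of the group, 89 to 166. Replicates differed by more than counting error, with a chi-square of 2.74 to 63.6 per degree of freedom, so errors were taken from the replicates. Cxcl10, an interferon-induced chemokine, stood at 0 to 0.569 CPM (counts scaled to a common, TMM-adjusted library size) without HT-DNA and at 25.4 to 286 CPM with it, and Asns, asparagine synthetase, at 546 to 580 CPM with AOA against 404 to 407 CPM in Mock. The fibroblast genes Vim (at least 2300 CPM), S100a4 and Col1a1 were expressed in every library, but the fibroblast markers Thy1, Dcn and Lum were at or near 0, at 0.169 CPM or less. The leukocyte list summed to 111 to 156 CPM, nearly all of it Cd68, with Ptprc and Adgre1 at 0, and the epithelial and endothelial lists summed to at most 0.679 CPM. Fewer cells and less RNA per cell cannot be told apart in bulk RNA. The dependence of counts on GC content differed between libraries. Its slope relative to Mock, in log2 CPM per 10 percentage points of GC, was 0.204 to 0.328 with HT-DNA, -0.145 to -0.0727 with HT-DNA, AOA and aspartate, and -0.283 to -0.0799 with AOA and aspartate. The 3 HT-DNA+AOA libraries differed among themselves, at -0.214, -0.0184 and 0.251 in replicates 1, 2 and 3. Values from a GC-corrected fit, in which each library's trend with GC content and exon length was removed, are given beside the called results that they move by over 1.5 times or whose call they change, and beside some that were not called.

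Promoter sequences show what the genes share outside their counts. RefSeq windows from 250 bases before to 50 bases after the start site (GRCm38.p6) were found for all 10 genes, with a second start for Twnk. The core CCGGAA, which ETS factors such as GABPA bind, occurred on either strand in the windows of 8 of the 10 genes, all but Tfb2m and Mgme1, against 14.9% of all 32851 windows and 27.5% of the 12546 windows of genes tested here. Genes were counted if any of their windows held a motif, whereas the percentages are shares of windows. Twnk holds CCGGAA at its second start only. The NRF1 core GCGCATGC, from the factor named for its control of respiratory genes, occurred in the windows of Polrmt, Tfb2m and Exog, against 2.71% of all windows and 5.05% of those of tested genes. GGGCGG, an SP1 motif, occurred in 6 genes (60.8% of the windows of tested genes), CCAAT in 3 (38.4%) and the YY1 motif AAGATGGC in Mgme1 alone (4.42%). None of the 10 held the E-box CACGTG (9.92% of the windows of tested genes) or the CRE TGACGTCA (2.98%) in this window. The same held for the amino acid response element core TGATGNAA (2.3%) and the interferon response core TTTCNNTTTC (3.1%). With shares this low, none among 10 genes does not set the group apart. Matches overlap in Exog between NRF1 cores that start at bases 176 (plus strand) and 178 (minus strand) of the window. They also overlap between a pair of SP1 motifs in Polg, and not between different motifs. The 250 bases before the start are shown for Tfam and Mgme1, whose transcripts rose with AOA both with and without HT-DNA, and for Polrmt and Exog, which both hold an ETS and an NRF1 core but moved in opposite directions. Capitals mark CCGGAA and GCGCATGC on either strand, so that TTCCGG is the ETS core read from the other strand.
Tfam, chr10:71238045-71238294, minus strand: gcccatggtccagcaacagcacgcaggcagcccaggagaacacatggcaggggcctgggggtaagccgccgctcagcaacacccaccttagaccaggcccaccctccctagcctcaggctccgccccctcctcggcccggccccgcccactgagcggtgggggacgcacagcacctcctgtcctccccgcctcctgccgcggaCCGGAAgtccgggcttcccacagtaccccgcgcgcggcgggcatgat
Mgme1, chr2:144270654-144270903, plus strand: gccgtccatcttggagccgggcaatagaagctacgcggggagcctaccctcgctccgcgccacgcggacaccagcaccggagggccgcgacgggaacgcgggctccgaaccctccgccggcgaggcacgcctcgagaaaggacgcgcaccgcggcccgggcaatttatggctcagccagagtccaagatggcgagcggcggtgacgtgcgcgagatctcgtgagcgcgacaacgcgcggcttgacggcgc
Polrmt, chr10:79746582-79746831, minus strand: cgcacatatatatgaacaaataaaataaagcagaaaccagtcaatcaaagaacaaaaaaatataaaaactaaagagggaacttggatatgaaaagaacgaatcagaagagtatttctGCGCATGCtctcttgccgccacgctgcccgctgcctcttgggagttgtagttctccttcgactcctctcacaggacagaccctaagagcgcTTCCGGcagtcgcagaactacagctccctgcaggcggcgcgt
Exog, chr9:119444710-119444959, plus strand: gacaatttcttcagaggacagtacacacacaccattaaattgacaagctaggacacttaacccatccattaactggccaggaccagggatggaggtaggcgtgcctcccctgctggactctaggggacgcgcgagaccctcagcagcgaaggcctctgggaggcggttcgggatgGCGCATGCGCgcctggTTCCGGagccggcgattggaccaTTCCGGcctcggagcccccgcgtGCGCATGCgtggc
The Tfam window has 1 ETS core and Polrmt 1 of each motif. Exog has 2 ETS cores and NRF1 cores at 2 places, 1 of which holds overlapping cores on both strands, and Mgme1 has neither motif. Both motifs occur in genes that rose with AOA and in genes that fell.

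In Mock cells, levels per kb of the longest principal transcript in GENCODE vM21 spanned less than a factor of 5 between the 10 genes. Polg stood highest at 16.2 ± 0.715 CPM per kb (SD, n = 3). It was followed by Tfb2m at 12.4 ± 0.952, Twnk at 12.03 ± 0.278, Ssbp1 at 11.5 ± 0.808, Tfam at 11.4 ± 0.484 and Mgme1 at 10.8 ± 0.147 CPM per kb, and neighbours among these 5 lay within about 1 SD of each other. Tfb1m (7.91 ± 0.736) and Polrmt (7.39 ± 0.172) were lower and also not separated, and Exog (4.18 ± 0.623) and Polg2 (3.65 ± 0.327) were lowest. With the combined length of all annotated exons, Polg (11.8), Tfb2m (10.8) and Polg2 (1.26 CPM per kb) kept these places, but Ssbp1 and Tfb1m dropped to 6.04 and 3.07 CPM per kb, so their places depend on the transcript assumed.

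**Figure D1:**
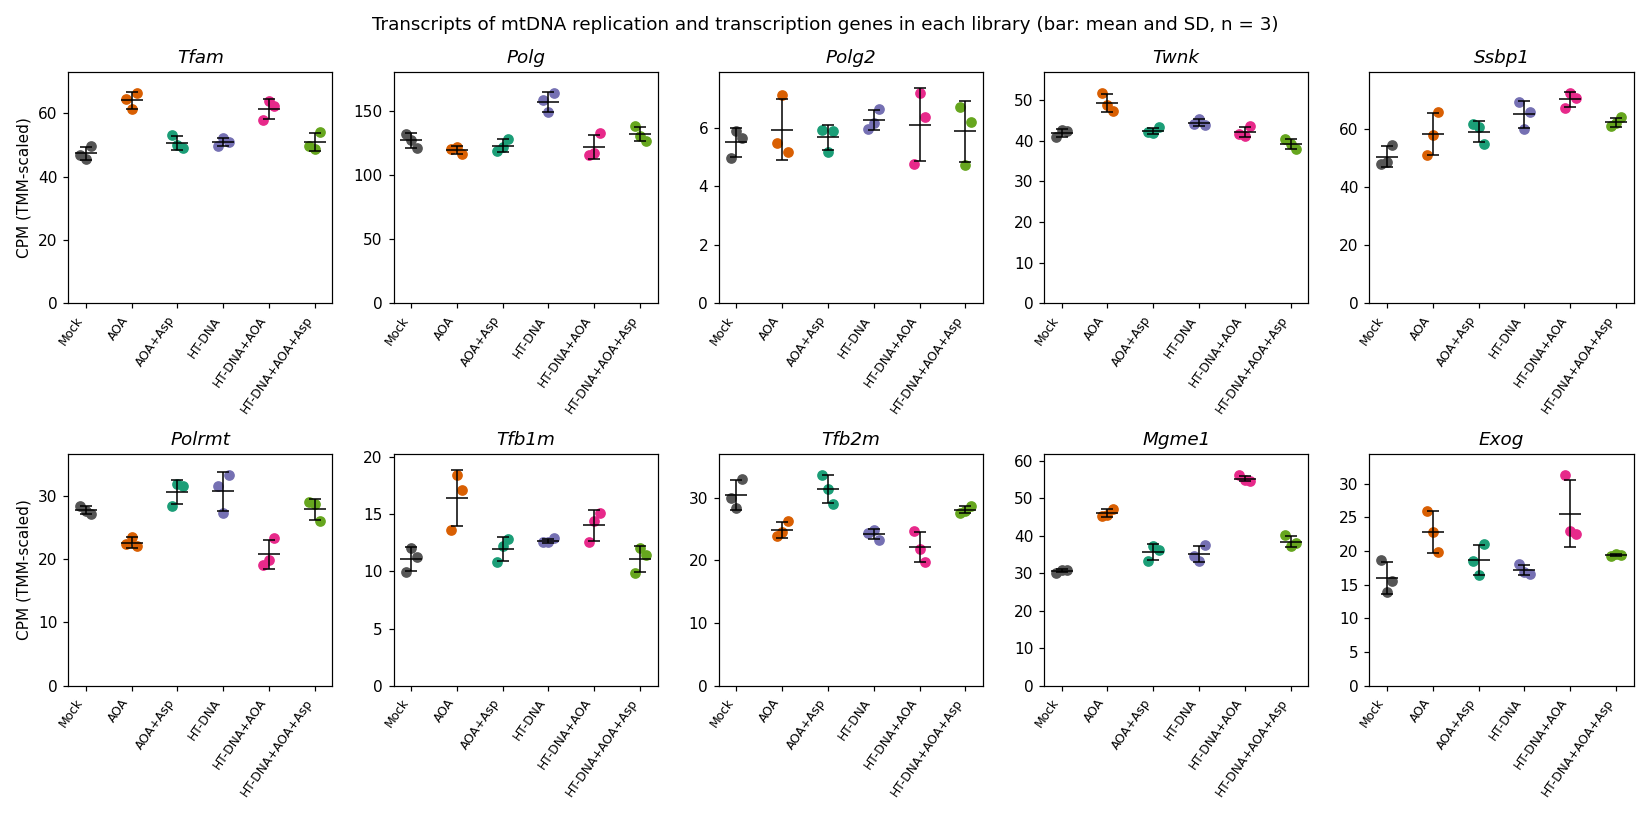
Level of each of the 10 genes in CPM (linear axis from 0) in the 18 libraries, by group, with the mean and SD of 3 replicates. Tfam, Tfb1m and Mgme1 stand highest in an AOA group without aspartate, and Polrmt stands lowest in the AOA and HT-DNA+AOA groups.

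AOA alone moved transcripts of the machinery in both directions. Of the 10 genes, 5 rose relative to Mock, namely Mgme1, Tfb1m, Exog, Tfam and Twnk, and 2 fell, Polrmt and Tfb2m, all without overlap between replicates. Among all genes tested, 22.5% rose and 23.2% fell, so rises were above that share and falls near it. The share of all genes whose replicates did not overlap is not given here. With library totals in place of TMM the split over all genes moved from 3204 higher and 3315 lower to 2125 and 4503, and Twnk was no longer called. The median log2 fold change of the 10 genes was 0.22, and their median absolute change of 0.292 was slightly under the 0.324 of all genes tested. Adding aspartate to AOA raised 2 (23.4% of all genes rose) and lowered 4 (22.8% fell). These were Polrmt and Tfb2m, which rose, and Tfam, Twnk, Tfb1m and Mgme1, which fell. The comparisons share the AOA libraries, so the opposite signs are not independent of each other. Against Mock, none of the 10 differed with AOA+Asp by edgeR's test, where 2.52% of all genes were higher and 3.95% lower. At an unadjusted p under 0.05 there were 2, Mgme1 and Ssbp1, a threshold at which the share of all genes is not given here. Their log2 fold changes were 0.21 (95% interval 0.073 to 0.36) and 0.23 (0.049 to 0.41), and DESeq2's test called 1, Mgme1. The replicates of Ssbp1, Polrmt and Mgme1 did not overlap between these groups, but the share of all genes without overlap is not given here. The GC-corrected fit called Polrmt (0.30, adjusted p = 0.00141) and Mgme1 (0.23, adjusted p = 0.0164), and over all genes 804 higher and 693 lower.

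HT-DNA alone raised Polg, Ssbp1 and Mgme1 and lowered Tfb2m, against 24.2% of all genes higher and 24% lower. With library totals, 2408 rose and 4437 fell in place of 3456 and 3425. The GC-corrected fit also called Tfam (0.36, against 0.11 without the correction) and Tfb1m (0.39, against 0.20). AOA added to HT-DNA raised Tfam, Mgme1 and Exog (22.8% of all genes higher) and lowered Polg and Polrmt (22.7% lower). Aspartate added to HT-DNA and AOA raised Polrmt and Tfb2m (23.7% higher) and lowered Tfam, Tfb1m, Mgme1 and Exog (23.9% lower). With all agents, 3 genes still differed from HT-DNA alone, with Tfb2m higher (23.2% of all genes) and Polg and Twnk lower (23.5%). The GC-corrected fit called neither Tfb2m nor Twnk, but Tfam (-0.29), Ssbp1 (-0.49), Tfb1m (-0.43) and Polrmt (0.25). For a difference of the AOA effects with and without HT-DNA, edgeR's test called Twnk alone, which was lower than additive effects give (8.26% of all genes were lower and 7.23% higher in this test). At an unadjusted p under 0.05 there were 4 of the 10 genes, Twnk, Polg, Tfb1m and Polrmt. The share of all genes under this unadjusted threshold is not given here. Polg (-0.28, adjusted p = 0.0528), Tfb1m (-0.42, adjusted p = 0.0876) and Polrmt (-0.27, adjusted p = 0.149) missed the adjusted threshold. The GC-corrected fit called Tfam (-0.40, adjusted p = 0.0179) and Tfb1m (-0.63, adjusted p = 0.0304) in place of Twnk.

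**Figure D2:**
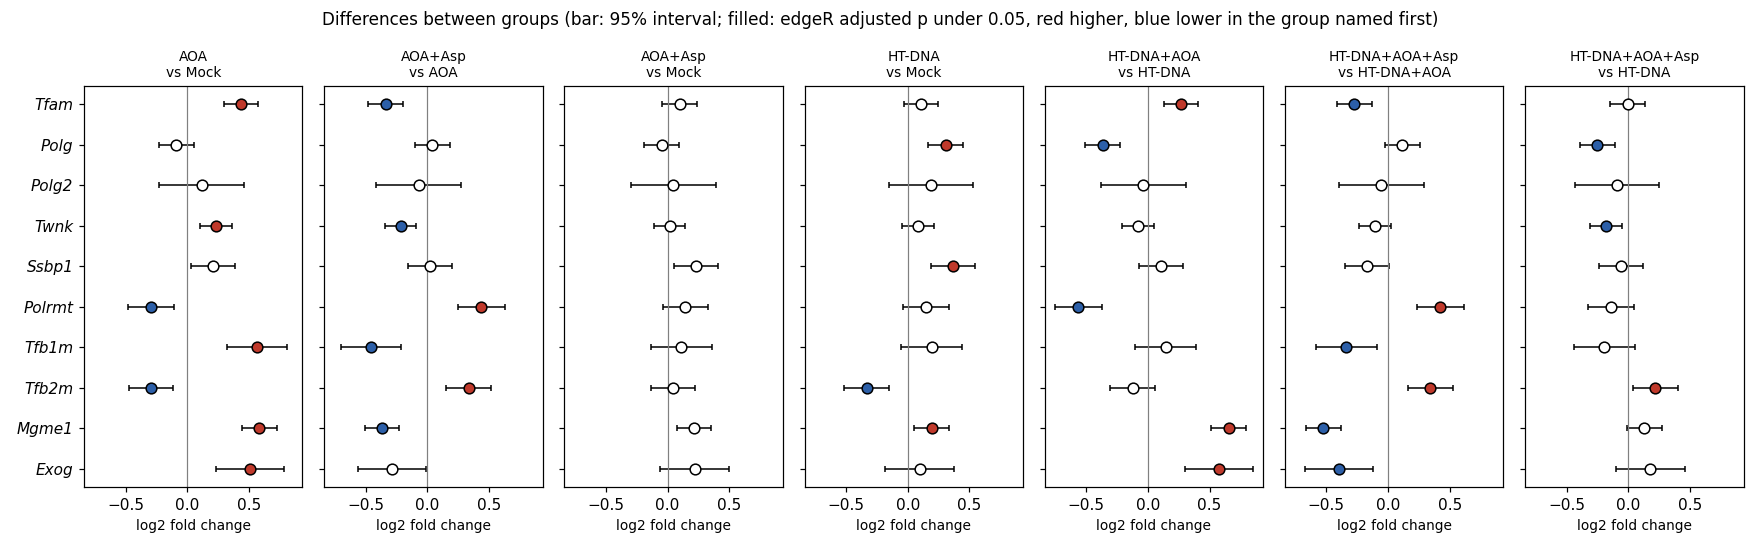
Log2 fold change of each gene in the 7 comparisons, with its 95% interval from edgeR's fit of all 18 libraries. Filled points had an adjusted p under 0.05 over all 14263 genes, red where the group named first was higher and blue where it was lower; AOA vs Mock has 5 red and 2 blue points and AOA+Asp vs Mock has none.

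Tfam, which packages mtDNA and bends its promoters, was measured at 46.7, 45.6 and 49.5 CPM in Mock and at 64.5, 61.3 and 66.4 CPM with AOA. It returned to 53.1, 49.96 and 48.99 CPM when aspartate was added. The lowest AOA library therefore lay above every library of the other groups except 2 of HT-DNA+AOA. The rise with AOA was 1.35-fold (log2 fold change 0.44, SE 0.0672, adjusted p = 3.55e-05 from edgeR's test), and aspartate lowered it by 0.34 on the log2 scale (SE 0.0671, adjusted p = 0.00048 from edgeR's test). HT-DNA alone gave 49.6, 52.2 and 51.1 CPM, with AOA 57.9, 64.0 and 62.3 CPM, and with AOA and aspartate 49.7, 48.7 and 54.1 CPM. All 3 HT-DNA+AOA libraries were above both other HT-DNA groups. The rise was 1.20-fold (log2 fold change 0.27, SE 0.0673, adjusted p = 0.00297 from edgeR's test). The call was not made in the GC-corrected fit (0.11, adjusted p = 0.282) or when only the libraries compared were fitted (adjusted p = 0.0527). The fall with aspartate had a log2 fold change of -0.27 (adjusted p = 0.00279 from edgeR's test), and -0.40 in the GC-corrected fit, but missed the threshold with only the libraries compared (-0.28, adjusted p = 0.0541).

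Polrmt, the mitochondrial RNA polymerase, moved the other way. Its level was 28.4, 27.7 and 27.1 CPM in Mock, 22.4, 23.6 and 22.0 CPM with AOA and 28.5, 32.0 and 31.7 CPM with AOA and aspartate. The AOA libraries lay below both other groups. The log2 fold change was -0.29 with AOA (SE 0.0902, adjusted p = 0.0126 from edgeR's test) and 0.44 when aspartate was added (SE 0.0899, adjusted p = 0.00064 from edgeR's test). With HT-DNA it stood at 31.6, 27.3 and 33.3 CPM (0.15 against Mock, or -0.098 in the GC-corrected fit, neither called), with HT-DNA and AOA at 19.1, 19.9 and 23.4 CPM, and with aspartate as well at 29.0, 28.7 and 26.0 CPM. Polrmt transcripts thus fell by 0.56 on the log2 scale when AOA was added to HT-DNA (SE 0.0909, adjusted p = 4.75e-05 from edgeR's test). Its exons hold 60.2% GC, the highest of the 10, and in the GC-corrected fit the fall was -0.20 (adjusted p = 0.00888) with HT-DNA and -0.19 (adjusted p = 0.00971) without it. The rise with aspartate in HT-DNA–stimulated cells was 0.43 (adjusted p = 0.000897 from edgeR's test), and 0.45 in the GC-corrected fit. Between HT-DNA+AOA+Asp and HT-DNA the log2 fold change was -0.14 (adjusted p = 0.207), but 0.25 in the GC-corrected fit (adjusted p = 0.00194), so that its direction depends on the correction.

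Tfb2m, which opens the promoter together with Polrmt, fell with AOA from 30.0, 28.3 and 32.9 CPM in Mock to 23.9, 24.5 and 26.2 CPM. It stood at 33.6, 31.4 and 29.1 CPM with aspartate added. The AOA libraries did not overlap either group. The log2 fold change was -0.29 (SE 0.0859, adjusted p = 0.00948 from edgeR's test), which was -0.23 and not called without Mock replicate 3 (adjusted p = 0.057), and aspartate raised it by 0.34 (adjusted p = 0.00374 from edgeR's test), or by 0.21 in the GC-corrected fit. HT-DNA alone lowered Tfb2m to 24.3, 24.8 and 23.3 CPM (log2 fold change -0.33, adjusted p = 0.00397 from edgeR's test, and -0.21 in the GC-corrected fit). AOA did not lower it further by this test, with 24.7, 21.9 and 19.8 CPM and a log2 fold change of -0.12 (95% interval -0.31 to 0.061), although in the GC-corrected fit the difference was called at -0.32 (adjusted p = 0.000267). With aspartate as well, levels were 27.6, 27.9 and 28.7 CPM, above all libraries of the 2 other HT-DNA groups. Against HT-DNA alone, this was a log2 fold change of 0.22 (adjusted p = 0.0446 from edgeR's test) that lost its call when any 1 of the 6 libraries was left out (0.19 to 0.23, adjusted p = 0.0684 to 0.138) and in the GC-corrected fit (-0.0094). The pseudogene Gm1818 holds 35.2% of the 31-base sequences of Tfb2m, and was listed at 0 in all libraries.

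Tfb1m, the methyltransferase of mitochondrial ribosomal RNA, rose with AOA where Tfb2m fell. It was measured at 9.99, 12.03 and 11.2 CPM in Mock, 13.7, 18.4 and 17.1 CPM with AOA and 10.8, 12.2 and 12.8 CPM with AOA and aspartate. No AOA library overlapped either group. The rise was 1.48-fold (log2 fold change 0.57, SE 0.117, adjusted p = 0.000626 from edgeR's test), and the change with aspartate was -0.46 (adjusted p = 0.00354 from edgeR's test). With HT-DNA the levels were 12.6, 12.6 and 12.9 CPM, and with HT-DNA and AOA 12.5, 14.4 and 15.1 CPM, which overlapped. The log2 fold change of AOA in HT-DNA–stimulated cells was 0.14 (95% interval -0.10 to 0.39), or -0.040 in the GC-corrected fit. The difference of the AOA effects with and without HT-DNA, -0.42, had an adjusted p of 0.0876 from edgeR's test. It was called in the GC-corrected fit (-0.63, adjusted p = 0.0304), with the replicate number as a block (adjusted p = 0.0323) and with both (adjusted p = 0.00576). The 6 other settings tried did not call it (adjusted p = 0.0908 to 0.161). With 1 library left out, it was called without AOA replicate 1 (-0.54, adjusted p = 0.0295) or HT-DNA+AOA replicate 3 (-0.48, adjusted p = 0.0309). It was not called without any other library (adjusted p = 0.087 to 0.228). Aspartate then lowered Tfb1m to 9.87, 12.03 and 11.4 CPM (-0.34, adjusted p = 0.026 from edgeR's test). That call was lost without HT-DNA+AOA replicate 2 (-0.32, adjusted p = 0.0743), without HT-DNA+AOA replicate 3 (-0.28, adjusted p = 0.0877) and without HT-DNA+AOA+Asp replicate 1 (-0.26, adjusted p = 0.124), as well as with library totals (-0.24, adjusted p = 0.088) and with only the libraries compared (adjusted p = 0.0715). Tiam2 shares 3.94% of the exon bases of Tfb1m on the opposite strand and fell with AOA (log2 fold change -0.52).

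Ratios of counts within a library do not depend on how libraries are scaled, but they are not corrected for GC content. The ratio of Tfam to Polrmt was 1.64, 1.65 and 1.82 in Mock, 2.88, 2.60 and 3.01 with AOA, and 1.86, 1.56 and 1.55 with AOA and aspartate. In HT-DNA–stimulated cells it was 1.57, 1.91 and 1.53, then 3.03, 3.21 and 2.66 with AOA, and 1.71, 1.70 and 2.08 with aspartate as well. All 6 libraries with AOA and no aspartate were at 2.60 or more, and the other 12 at 2.08 or less. Tfam exons hold 44.4% GC against the 60.2% of Polrmt. In the GC-corrected fit the AOA changes of Tfam and Polrmt were 0.51 and -0.19 without HT-DNA (0.44 and -0.29 uncorrected), but 0.11, not called, and -0.20 with HT-DNA (0.27 and -0.56 uncorrected), so the gap between both genes in HT-DNA–stimulated cells was smaller in that fit. The ratio of Tfb1m to Tfb2m averaged 0.366 ± 0.0504 in Mock, 0.659 ± 0.0902 with AOA and 0.384 ± 0.0594 with AOA and aspartate (SD, n = 3). It was 0.526 ± 0.0241 with HT-DNA alone, above Mock in every library, 0.644 ± 0.130 with HT-DNA and AOA, which overlapped HT-DNA alone, and 0.395 ± 0.0369 with all agents.

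**Figure D3:**
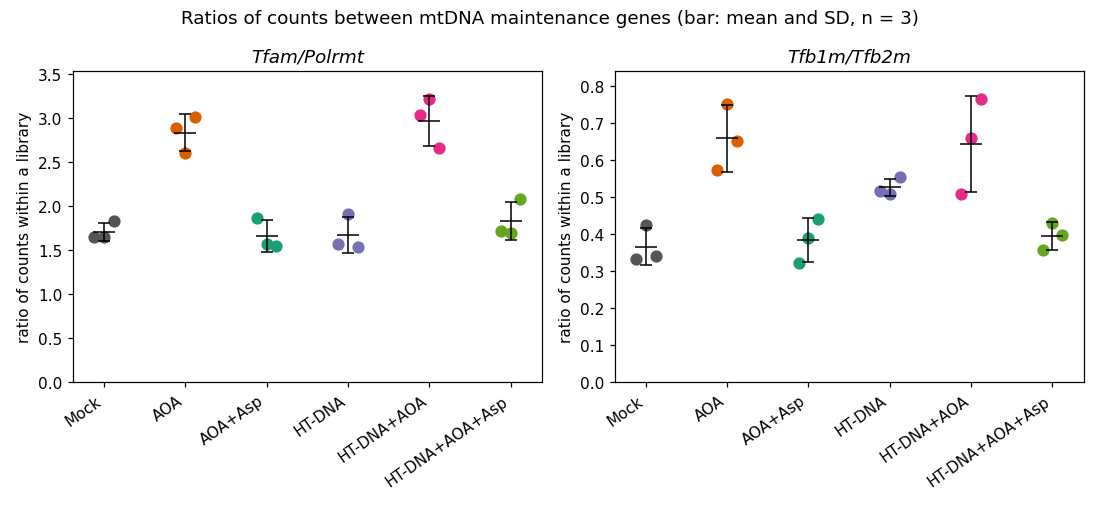
Ratio of counts of Tfam to Polrmt and of Tfb1m to Tfb2m (unitless, linear axis from 0) in each library, with the mean and SD of 3 replicates. The Tfam to Polrmt ratio is 2.60 or more in the 6 libraries with AOA and no aspartate and 2.08 or less in the other 12, with no correction for GC content.

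Among the replisome genes, Polg, the catalytic subunit of the mtDNA polymerase, did not pass the test with AOA alone. Its level was 132, 128 and 121 CPM in Mock, 121, 122 and 116 CPM with AOA and 119, 122 and 129 CPM with AOA and aspartate, and the groups overlapped. The log2 fold change with AOA was -0.087 (95% interval -0.23 to 0.055), or -0.22 with library totals, which called it (adjusted p = 0.00799). HT-DNA raised Polg to 159, 149 and 164 CPM, above every other library of the series. The rise was 1.24-fold (log2 fold change 0.31, SE 0.0671, adjusted p = 0.00122 from edgeR's test). With HT-DNA and AOA it was back at 116, 117 and 133 CPM (-0.37, SE 0.0674, adjusted p = 0.000187 from edgeR's test), and with aspartate as well at 139, 131 and 127 CPM, still below HT-DNA alone (-0.25, adjusted p = 0.00548 from edgeR's test). In the GC-corrected fit these were 0.37, -0.15 (adjusted p = 0.0161) and -0.17 (adjusted p = 0.0105). The AOA effects with and without HT-DNA differed by -0.28, with an adjusted p of 0.0528 from edgeR's test. DESeq2's test called this difference (-0.26, adjusted p = 0.0323), as did edgeR's test without HT-DNA+AOA replicate 3 (-0.35, adjusted p = 0.00365). Fanci shares 8.57% of the exon bases of Polg on the opposite strand and fell where Polg rose with HT-DNA (log2 fold change -0.47).

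Polg2, the accessory subunit that holds the polymerase on DNA, passed no test. Its 18 values lay between 4.71 and 7.19 CPM, and its log2 fold changes between -0.15 for the interaction and 0.19 for HT-DNA. The intervals were wide, with -0.23 to 0.46 for AOA, which includes the 0.44 seen for Tfam.

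Twnk, the replicative helicase, rose with AOA from 40.8, 42.6 and 42.4 to 51.7, 48.8 and 47.3 CPM. It stood at 42.0, 41.9 and 43.3 CPM with aspartate. The AOA libraries were the highest of the series. The rise was 1.17-fold (log2 fold change 0.23, SE 0.0609, adjusted p = 0.00417 from edgeR's test) and the change with aspartate -0.22 (adjusted p = 0.00712 from edgeR's test). The first was not called with library totals (0.10, adjusted p = 0.172) or without a filter on low counts (adjusted p = 0.0803), and the second was lost with both (adjusted p = 0.0791 and 0.113) and in the GC-corrected fit (-0.099). With HT-DNA the levels were 44.0, 45.4 and 43.8 CPM, with AOA 41.6, 41.1 and 43.5 CPM and with all agents 40.4, 39.2 and 38.0 CPM. The change of Twnk with AOA in HT-DNA–stimulated cells was not called (-0.077, 95% interval -0.21 to 0.051). The difference of the 2 AOA effects was -0.31 (SE 0.0864, adjusted p = 0.0226 from edgeR's test). The call was lost in the GC-corrected fit (-0.19, adjusted p = 0.0879) and without Mock replicate 1 (adjusted p = 0.0612), AOA replicate 1 (0.0511), HT-DNA replicate 2 (0.0553) or HT-DNA+AOA replicate 2 (0.0561). The fall from HT-DNA to HT-DNA+AOA+Asp (-0.18, adjusted p = 0.0223) was lost without HT-DNA+AOA+Asp replicate 2 (adjusted p = 0.0594) or 3 (0.086), with library totals (0.0867) and in the GC-corrected fit (-0.0084). Mrpl43 shares 12.6% of the exon bases of Twnk on the opposite strand and moved in the same direction in the interaction (-0.69, adjusted p = 0.00906), and its part in the Twnk value was not tested.

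Ssbp1, which coats single-stranded mtDNA, rose with HT-DNA from 48.0, 48.8 and 54.5 CPM in Mock to 69.2, 60.02 and 65.995 CPM. The groups did not overlap, and the rise was 1.29-fold (log2 fold change 0.37, SE 0.086, adjusted p = 0.00208 from edgeR's test), or 0.76 in the GC-corrected fit. It stayed at 67.3, 72.4 and 70.8 CPM with AOA added and at 61.03, 62.1 and 64.1 CPM with aspartate as well, and neither step was called, although the fall with aspartate was called in the GC-corrected fit (-0.45, adjusted p = 0.0174). With AOA alone the values were 51.2, 58.0 and 65.8 CPM, which spread more widely than Mock and overlapped it. The log2 fold change of 0.21 had an adjusted p of 0.0556, and passed the threshold without Mock replicate 3 (0.27, adjusted p = 0.0336) or without AOA replicate 1 (0.29, adjusted p = 0.0112), and in the GC-corrected fit (0.38, adjusted p = 0.0412). With aspartate added to AOA the values of 61.9, 60.6 and 54.97 CPM were above Mock in every library, the lowest only just. The difference from Mock was not called (0.23, adjusted p = 0.123 from edgeR's test). The change from AOA to AOA+Asp was 0.021 (95% interval -0.16 to 0.20), or -0.29 and also not called in the GC-corrected fit, where the difference between AOA+Asp and Mock was 0.091 in place of 0.23.

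Mgme1, the exonuclease that trims single-stranded ends of mtDNA, was measured at 30.2, 31.001 and 30.8 CPM in Mock, 45.2, 45.6 and 47.2 CPM with AOA and 33.2, 37.2 and 36.4 CPM with AOA and aspartate. The 3 groups were fully separated. The rise was 1.499-fold (log2 fold change 0.58, SE 0.0672, adjusted p = 1.3e-06 from edgeR's test), and aspartate lowered it by 0.37 on the log2 scale (adjusted p = 0.000202 from edgeR's test). HT-DNA gave 34.7, 33.3 and 37.4 CPM, with AOA 56.2, 54.98 and 54.7 CPM, and with aspartate as well 40.2, 37.2 and 38.0 CPM. The HT-DNA+AOA libraries were the highest of the series. AOA raised Mgme1 1.57-fold in HT-DNA–stimulated cells (log2 fold change 0.65, SE 0.0668, adjusted p = 2e-07 from edgeR's test) and aspartate lowered it (-0.52, adjusted p = 4.18e-06 from edgeR's test). The AOA effects with and without HT-DNA differed by 0.071 (95% interval -0.13 to 0.27). The smaller rise with HT-DNA alone (0.20, adjusted p = 0.0231 from edgeR's test) was lost without Mock replicate 1 (adjusted p = 0.0735), Mock replicate 2 (0.0509) or HT-DNA replicate 3 (0.15, adjusted p = 0.123), and with library totals (0.085). Snx5 shares 6.15% of the exon bases of Mgme1 on the opposite strand, is more abundant (202 CPM in Mock) and moved alike, by 0.97 with AOA and -0.59 with aspartate. The sources used here do not say whether the counting used strand, and the part of Snx5 reads in the Mgme1 values was not tested.

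Exog, an exonuclease of the same compartment, had lower and more variable counts. It stood at 18.6, 13.9 and 15.5 CPM in Mock and at 25.9, 22.8 and 19.8 CPM with AOA, without overlap (1.42-fold, log2 fold change 0.51, SE 0.133, adjusted p = 0.00421 from edgeR's test). With aspartate it was 18.5, 16.5 and 21.0 CPM, which overlapped both (-0.29 against AOA, adjusted p = 0.08, or 0.0301 in the GC-corrected fit). HT-DNA gave 18.04, 16.9 and 16.5 CPM, and HT-DNA with AOA 31.2, 22.9 and 22.5 CPM, where replicate 1 stands apart. The rise was 1.49-fold (log2 fold change 0.58, SE 0.133, adjusted p = 0.00149 from edgeR's test) and was called with each library left out in turn (0.40 to 0.66). Aspartate lowered Exog to 19.2, 19.6 and 19.5 CPM (-0.40, adjusted p = 0.019 from edgeR's test), but not past the threshold without HT-DNA+AOA replicate 1 (-0.22, adjusted p = 0.116) or HT-DNA+AOA+Asp replicate 1 (-0.39, adjusted p = 0.0534), with library totals (adjusted p = 0.0819) or with only the libraries compared (0.058).

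Over the 18 libraries, log2 CPM of Tfam varied with Mgme1 (Pearson's r = 0.838), Tfb1m (0.754) and Exog (0.672), and against Polrmt (-0.803) and Tfb2m (-0.604). Polrmt and Tfb2m had r = 0.465. These values describe 18 libraries that share treatments and scaling. The tested genes most like Tfam were Spp1 (0.965), Rnf149 (0.961) and Dpf2 (0.942). Those most like Polrmt were Rpa2 (0.960), Mafg (0.951) and Agfg2 (0.950), and those most like Mgme1 were Snhg5 (0.969), Cavin4 (0.967) and Ywhae (0.964).

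Genes that work around this machinery were described by their counts of calls, to be read against the shares of all genes. With AOA alone, accessory factors of the nucleoid and of replication rose in 13 and fell in 4 of 22, where 22.5% of all genes rose and 23.2% fell (median log2 fold change 0.40, against 0.015 over all genes tested). Atad3a, a membrane ATPase bound to nucleoids, rose most (125 ± 3.44 to 223 ± 4.51 CPM, log2 fold change 0.84, adjusted p = 1.73e-07 from edgeR's test), and Top3a, a topoisomerase that separates daughter molecules, fell most (-0.55, adjusted p = 0.000317). Of 16 genes of mtDNA precursor supply, 7 rose and 4 fell, the latter near the share of all genes. They were led by Slc25a33, a pyrimidine nucleotide carrier (36.8 ± 2.51 to 80.3 ± 4.74 CPM, log2 fold change 1.13, adjusted p = 2.39e-08), and by Mpv17, an inner membrane protein whose loss depletes mtDNA (-0.51, adjusted p = 6.93e-05). Of 29 genes of mitochondrial transcription and RNA processing, 11 rose and 3 fell, with the elongation factor Tefm highest (11.7 ± 1.23 to 20.1 ± 0.721 CPM, log2 fold change 0.78) and Mterf2 lowest (-0.75). Genes listed as nuclear regulators of mitochondrial biogenesis, a list that also holds stress-response factors, rose in 5 and fell in 6 of 19. Ddit3 (CHOP, a stress-response factor) had a log2 fold change of 2.997 and Tfeb, a regulator of lysosomal genes, one of -0.88. With TMM scaling, the 3 lists of machinery had medians above 0 with AOA, and the regulators did not (-0.12). The median of RNA processing was only 0.12, and library totals in place of TMM shifted the median of all genes by -0.131, so its sign depends on the scaling.

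When aspartate was added to AOA, the accessory list had 4 higher and 13 lower, precursor supply 4 and 8, RNA processing 6 and 10, and the regulators 8 and 6, against 23.4% higher and 22.8% lower over all genes. Slc25a33 (-1.07), Tefm (-0.86) and Myc (-1.83, from 537 ± 33.0 to 151 ± 9.24 CPM) fell, and Ppargc1a, the coactivator of mitochondrial biogenesis, rose (log2 fold change 1.51, adjusted p = 6.25e-06 from edgeR's test). Myc and Ppargc1a moved alike in HT-DNA–stimulated cells, by -1.81 and 1.21. Against Mock, AOA+Asp changed 0 of the 22 accessory factors by edgeR's test and 2 of 16 genes of precursor supply. It changed 1 of 29 of RNA processing and 2 of 19 regulators, where 2.52% of all genes were higher and 3.95% lower. Of the accessory factors, 4 had an unadjusted p under 0.05, a threshold at which the share of all genes is not given here. DESeq2 called 1 of the accessory factors, and 3 were called with only the libraries compared. HT-DNA alone raised 11 accessory factors and 15 RNA-processing genes and lowered 2 of each, with 4 higher and 4 lower in precursor supply and 6 and 9 among the regulators. Over all genes 24.2% rose and 24% fell, which is near the counts of precursor supply. Endog, the mitochondrial endonuclease G, rose (log2 fold change 0.96), as did Mrpl12 (0.80), a ribosomal protein reported to bind POLRMT, while Ppargc1a fell (-1.25).

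AOA in HT-DNA–stimulated cells raised 8 and lowered 6 accessory factors, raised 7 and lowered 5 genes of precursor supply, raised 6 and lowered 5 RNA-processing genes, and raised 5 and lowered 5 regulators. With 22.8% of all genes higher and 22.7% lower, the RNA-processing genes and the regulators were near or under these shares. Rrm2b, the p53-inducible subunit of ribonucleotide reductase, rose (9.27 ± 0.519 to 25.9 ± 8.73 CPM, log2 fold change 1.49, adjusted p = 8.12e-07), and Rrm2, the subunit of dividing cells, fell (649 ± 46.2 to 361 ± 8.63 CPM, -0.85, adjusted p = 5.81e-08). Esrra, a partner of PGC-1α, fell too (-1.13). Adding aspartate to both gave 4 higher and 11 lower accessory factors, 4 and 6 of precursor supply, 4 and 10 of RNA processing, and 7 and 5 regulators (23.7% of all genes higher and 23.9% lower). With all agents against HT-DNA alone these were 4 and 11, 4 and 3, 5 and 10, and 9 and 5 (23.2% and 23.5% of all genes). The interaction gave 0 higher and 4 lower accessory factors, 1 and 4, 0 and 4, and 3 and 0 (7.23% and 8.26% of all genes).

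**Figure D4:**
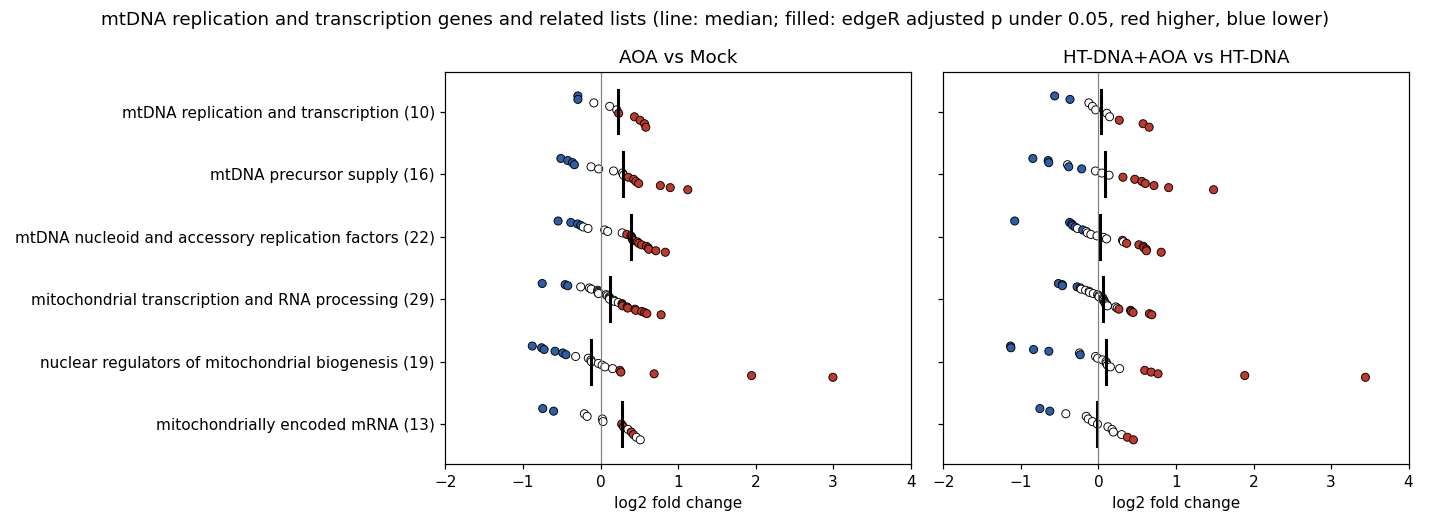
Log2 fold change with AOA, without HT-DNA (left) and with it (right), for the 10 genes and for the tested genes of 5 related lists (number in parentheses). The line is the list's median, and filled points had an adjusted p under 0.05 (red higher, blue lower); the accessory factors have 13 red and 4 blue points on the left and 8 and 6 on the right.

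The mRNAs transcribed by this machinery from mtDNA made up 2.80% ± 0.115 of counts in Mock and 2.84% ± 0.116 with AOA (SD, n = 3), a difference smaller than the spread between replicates. They made up 3.32% ± 0.109 with AOA and aspartate, above every Mock and AOA library. The shares were 2.80% ± 0.233, 2.88% ± 0.0742 and 3.11% ± 0.0281 with HT-DNA, HT-DNA and AOA, and all agents. Single mRNAs did not move together. With AOA, 4 of 13 rose and 2 fell (22.5% and 23.2% of all genes). Levels of mt-Cytb went from 2894 ± 175 to 3884 ± 218 CPM (log2 fold change 0.42, adjusted p = 5.39e-05 from edgeR's test) and mt-Nd1 from 4237 ± 85.8 to 2527 ± 222 CPM (-0.75, adjusted p = 1.12e-07). Both are encoded on the same strand of mtDNA. Aspartate raised mt-Nd1 again (0.81, adjusted p = 5.8e-08), whereas mt-Cytb with AOA and aspartate was still above Mock (0.43, adjusted p = 0.000555). Calls were 3 higher and 1 lower with aspartate added to AOA, 4 and 0 for AOA+Asp against Mock, 4 and 0 for HT-DNA, 2 and 2 for AOA added to HT-DNA, 2 and 0 for aspartate added to both, 2 and 3 for all agents against HT-DNA, and 0 and 0 for the interaction by edgeR's test (0 at an unadjusted p under 0.05 and 0 by DESeq2), to be read against the same shares of all genes as the lists above.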

How the data were processed

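RNA was sequenced from 18 L929 cultures, 3 in each of 6 groups, which were taken from the sample labels. Per the study's methods, RNA was extracted with TRIzol and the replicates were independent cultures. The authors deposited expected counts of reads per gene without normalization, of which 11.6% were not whole numbers, and they were rounded. The aligner, counting program, strand setting and genome build are not given in the sources used here. Group means that the authors deposited beside the counts matched the libraries within 3.3e-05 and were not used. The design had assumed such estimated counts.

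The 10 genes and the related lists were chosen with earlier results of these data known, and the motifs after the values were seen. Counts were fitted in R 4.3.3 with edgeR 4.0.16 (filterByExpr with a minimum count of 10, minimum total of 15 and groups of 3; TMM factors 0.918 to 1.07; robust quasi-likelihood test; no block), with all 18 libraries in 1 fit. This left 14263 genes. A gene was called where its p-value, adjusted over all of them by the Benjamini-Hochberg method, was under 0.05. SE and intervals are those of the fit. Named list genes had the largest called rise or fall with at least 1 CPM and no overlap between replicates. A symbol held by several gene identifiers stood for the one with most counts. Abat, Cmpk2 and Ppara did not pass the filter. Correlations used log2 CPM with a prior count of 2.

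For 5 of the 10 genes (Polg, Polg2, Twnk, Tfb1m and Mgme1), exons overlap a gene on the opposite strand in GENCODE vM21, and these are the 5 with expected counts that were not whole, in 7 to 18 of 18 libraries. The correction for GC content and length removed each library's loess trend (span 0.3), with values for 97.5% of genes tested. Alternatives were DESeq2 1.42.0, RLE normalization, library totals, 2 other filters, only the libraries compared, the replicate number as a block, and each library left out. The steps were tested on simulated counts. Proteins of these genes were not analysed here.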

Additional observations from a re-analysis of the deposited data

Results flagged for a closer look

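The effect of AOA on Twnk differed with and without HT-DNA. The difference of the log2 fold changes was -0.31 (SE 0.0864, adjusted p = 0.0226 from edgeR's test of the interaction). AOA raised Twnk in all 3 libraries relative to Mock (0.23), and in HT-DNA–stimulated cells all 3 libraries lay below those with HT-DNA alone (-0.077, not called). The call was lost with library totals in place of TMM (-0.22, adjusted p = 0.0836), in the GC-corrected fit (-0.19, adjusted p = 0.0879), without a filter on low counts (-0.32, adjusted p = 0.146) and with only the libraries compared (-0.32, adjusted p = 0.0627). Mrpl43, which overlaps Twnk on the opposite strand, had an interaction of -0.69.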

How the results depend on the processing

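Each of the 10 genes was refitted in 7 comparisons and the interaction under 9 alternatives, and 0 of 80 results changed with RLE normalization, 1 with at least 10 counts in every library, 2 with DESeq2, 3 with the replicate block, 7 without a filter, 8 with only the libraries compared, 10 with library totals and 19 with the correction for GC content and length. Library totals shifted the median of all genes by -0.131 for AOA and -0.111 for HT-DNA against Mock, and the cause of the other changes was not tested. The correction reversed Polrmt between all agents and HT-DNA (0.25, and 0.25 with a replicate block). In the same comparison Tfb2m went from 0.22 to -0.0094 (-0.0095 with the block), a change of sign with almost no difference left. The number of the 10 genes called for AOA+Asp against Mock was 1 with DESeq2 and 2 with the correction (block or none) or only the libraries compared. For the interaction it was 2 with DESeq2, with the correction (block or none) and with the replicate block, which called Tfb1m as well, and 0 with library totals, without a filter and with only the libraries compared. For all agents against HT-DNA it was 5 with the correction (block or none) and 1 without a filter, and for aspartate added to HT-DNA and AOA 3 with only the libraries compared. Over all genes, the correction gave 2418 higher and 2764 lower for all agents against HT-DNA, in place of 3302 and 3345. Leaving out 1 library gave 0 to 4 calls for the interaction and 1 to 2 for all agents against HT-DNA, and for the other 6 comparisons counts within 1.5 times those reported.

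The list counts moved as follows, and calls over all genes moved too. For AOA+Asp against Mock they were 360 higher and 563 lower as reported, 231 and 873 with library totals, and 804 and 693 with the correction. For the interaction these were 1031 and 1178, 1388 and 763, and 1067 and 1540. For AOA added to HT-DNA, the correction gave 3575 and 3661 in place of 3248 and 3232. Calls over all genes are not given for the other alternatives. For AOA+Asp against Mock, accessory factors had 1 call with DESeq2, 1 with library totals, 3 with the correction (block or none) and 3 with only the libraries compared. RNA processing had 2, 2, 2 and 6 in that order, and regulators 5 with the correction (block or none), 5 without a filter and 7 with only the libraries compared. Precursor supply had 1 with library totals and 1 without a filter, and mitochondrially encoded mRNA 2 with library totals and 2 with the correction and block. For the interaction, precursor supply had 3 with library totals, 3 with the correction (block or none) and 1 with only the libraries compared, regulators 5 with the correction (block or none), 6 without a filter and 1 with only the libraries compared, accessory factors 7 without a filter, RNA processing 1 with only the libraries compared, and mitochondrially encoded mRNA 2 with the correction, 1 with the block as well and 2 without a filter. For AOA added to HT-DNA, RNA processing had 18 with the correction (block or none), 7 without a filter and 2 with only the libraries compared, accessory factors 8 with only the libraries compared and mitochondrially encoded mRNA 8 with the correction (block or none). The latter had 7 with the correction for aspartate added to AOA, 1 with it for HT-DNA (block or none), 3 with the correction and block for all agents against HT-DNA, and 5 without a filter for aspartate added to both. Precursor supply had 6 in that comparison with only the libraries compared. The correction with a block was chosen after seeing the data.

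Replicate numbers were not taken to pair the cultures, since the labels name no shared batch and not every same-numbered pair correlated. That does not show that no libraries shared a batch, and the replicate block was fitted as an alternative. The mean correlation of deviations was 0.0213 over 45 same-numbered pairs (-0.11 to 0.278, 7 over 0.1) and -0.0106 over 90 others (3 over 0.1), and 9 of 18 libraries were most like one with their own number. With the replicate block, Exog with aspartate added to AOA passed (adjusted p = 0.0478) and Tfb2m for all agents against HT-DNA did not (0.0525), while Tfb1m passed in the interaction (0.0323). Polg2 had the fewest counts of the 10 genes, at most 166 in a library, and no call.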
